A study of Mus musculus with 6 samples.

Results

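The replication-dependent histone genes are taken here as the genes whose symbol starts with Hist1h, Hist2h, Hist3h or Hist4h. The match takes in Hist3h2bb-ps, a pseudogene by its symbol, and whether each member depends on replication was not tested. They were taken by symbol alone from the deposited gene tables, and 75 of the 24214 rows in each table matched, with 68 distinct symbols. Because 6 of these rows overlap another member and carry the same counts as it, the 75 rows stand for 69 loci. The rows comprise 6 genes for linker histone H1 and, for the core histones, 22 rows for H2A, 21 for H2B, 12 for H3 and 14 for H4. The data are RNA sequencing of 393P, an epithelial murine lung adenocarcinoma (LUAD) cell line that the labels give as C57BL/6 KP lung cancer cells, after transfection with a ZEB1 expression vector (393P_ZEB1, n = 3) or with the empty vector (393P_vector, n = 3). All 6 samples were grown alike in RPMI-1640 medium with calf serum, and libraries were made from total RNA with a SOLiD kit. The question of the comparison is which transcripts differ when ZEB1, a transcription factor that activates epithelial-to-mesenchymal transition (EMT), is expressed. The labels do not say whether the 3 samples of a group came from separate transfections, clones or cultures, so p-values measure only the spread between these samples, which may be technical.

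Histones are the proteins on which DNA is wound. A nucleosome core holds H2A, H2B, H3 and H4, and H1 binds the DNA where it enters and leaves the core. Replication-dependent histone genes are transcribed mainly in S phase, when new DNA needs packing, from clusters gathered in the histone locus body, where NPAT drives their transcription. Their mRNAs typically have no introns and, unlike nearly all other mRNAs, no poly(A) tail, although some member rows here have 2 or 4 exons. The typical mRNAs end just after a conserved stem-loop that is bound by SLBP, which guides 3′ end cleavage, translation and the decay of the mRNA when DNA synthesis stops.

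The consensus of the histone 3′ stem-loop, whose stem opens with GG and closes with CC around a loop that starts with TTT, was searched on the transcript strand only in GENCODE M21 transcripts, and 44 of the 68 member symbols held it, against 89 of all 55341 genes (0.16%). The sequences below are those of the members on which the comparison turns, with 5 bases on each side. Capitals mark the 16 letters of the stem-loop, which are DNA letters on the transcript strand, and positions of the capitals are on GRCm38.
Hist1h2bb, chr13:23747203-23747218, plus strand: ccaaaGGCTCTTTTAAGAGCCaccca
Hist1h2bk, chr13:22036300-22036315, plus strand: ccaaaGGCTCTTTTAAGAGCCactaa
Hist2h2ac, chr3:96220418-96220433, minus strand: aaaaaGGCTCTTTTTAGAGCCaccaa
Hist1h1c, chr13:23739512-23739527, plus strand: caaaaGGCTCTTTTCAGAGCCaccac
Hist4h4, chr6:136803998-136804013, minus strand: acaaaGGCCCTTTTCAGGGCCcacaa
Hist1h4h, chr13:23531458-23531473, plus strand: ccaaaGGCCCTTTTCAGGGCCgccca
Hist2h4, chr3:96262939-96262954, minus strand: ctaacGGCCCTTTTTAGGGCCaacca
The letters printed for Hist1h1c were the most frequent form, held by 25 of the 43 tested members in which a stem-loop was placed, none of them H4 genes. The form of Hist4h4 and Hist1h4h was held by 7, all of them H4 genes. Hist1h2bb and Hist1h2bk, the only members whose difference passed the test with every sample left out in turn, shared a form held by 6 members. The others with that form were Hist1h1t, Hist1h3c, Hist1h3e and Hist1h3f, none of which passed the test in the fit of all 6 samples. The letters were not found for Hist1h3h, Hist2h2bb, Hist2h2be or Hist1h1a. An annotated transcript can end before the stem-loop, so a search without a match does not show that a gene lacks it.

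Promoters, taken from RefSeq (GRCm38.p6, 250 bases before to 50 after the start), were matched to 62 members and searched on both strands. The letters CCAAT were in 53 of them (85.5%, against 37.41% of all 32851 promoters), including all of the 6 H1, 18 H2A, 16 H2B and 10 H3 promoters and 3 of 12 H4 promoters. The letters TATAAA were in 35 (56.5%, against 13.62%). The octamer ATTTGCAT, the sequence bound by the factor Oct-1 (Pou2f1) at H2B genes, was in 13 (21%, against 1.74%), of which 7 belonged to H2A and 6 to H2B genes. CAGGTG, an E-box of the kind that ZEB1 binds, was in 8 (12.9%, against 20.21%). The octamers of Hist1h2bb, Hist1h2bk and Hist2h2bb are shown with 8 bases on each side, with the octamer in capitals, on the strand of the gene. The other H2B promoters with the octamer are not printed. Among them is that of Hist1h2bg, which is described below and did not pass the test (log2 fold change -0.003).
Hist1h2bb, chr13:23746636-23746659, plus strand: agtctcttATTTGCATaaagcctt
Hist1h2bk, chr13:22035783-22035806, plus strand: ttcactttATTTGCATacgaagtt
Hist2h2bb, chr3:96269644-96269667, plus strand: gaaacctcATTTGCATacaagctc
The same 24 bases serve Hist1h2bk and, read from the other strand, its neighbour Hist1h2ah. A match is a description of the letters and not a bound site.

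Total counts were 54442450 to 79158012 per sample, the highest being 393P_vector replicate 3. Levels are given in CPM, the count of a gene scaled to a library size corrected by edgeR's TMM method (factors 0.9789 to 1.0499), and 3 counts, the smallest number treated as detected, were 0.0361 to 0.0561 CPM. Zeb1 itself was at 21.2, 22 and 21.4 CPM in 393P_vector and 54.9, 48.9 and 51.3 CPM in 393P_ZEB1. Of 9 epithelial markers, 8 fell in 393P_ZEB1, with a median log2 fold change of -4.09, and 5 of 5 mesenchymal markers rose. The 6 lung alveolar markers were all too low to be tested. The summed level of 8 immune cell markers was 1.78 to 4.95 CPM, and that of 5 endothelial markers was 0.63 to 2.46 CPM, and both sums were higher in each 393P_vector sample than in any 393P_ZEB1 sample. Histone genes are expressed in every dividing cell type, and the part of other cell types in the values below was not tested.

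393P_vector replicate 3 stood apart from the other samples for the histone genes. In this sample, 52 of the 69 tested members had their highest level of the 6 samples, where 28% of all 13892 tested genes did. The level in this sample was at least 2 times the mean of 393P_vector replicates 1 and 2 for 39 members, against 5.05% of all genes, and the median ratio was 2.22 for the members and 0.996 for all genes. It was not alike between classes. The median ratio was 4.19 for H4, 3.23 for H2A, 2.91 for H3, 1.7 for H1 and 1.23 for H2B. At the extremes, Hist1h4a was at 0.919 and 1 CPM in replicates 1 and 2 and at 11 CPM in replicate 3, whereas Hist1h1a was at 421 and 392 CPM and then 255 CPM. Hist1h4a, like the other members named here outside the naming rule (Hist1h1b, Hist1h1c, Hist1h2ag, Hist1h2ah, Hist1h2bj, Hist1h2bk, Hist1h3c, Hist1h3d and Hist2h3b), was chosen after its values were seen. No member differed 2-fold or more between 393P_vector replicates 1 and 2, where 2.41% of all genes did. Between each of these and replicate 3, 35 and 41 members differed so (50.7% and 59.4%, against 8.71% and 9.6% of all genes). Between pairs of 393P_ZEB1 samples, 6 to 12 members did (8.7 to 17.4%, against 3.11 to 3.43% of all genes).

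**Figure D1:**
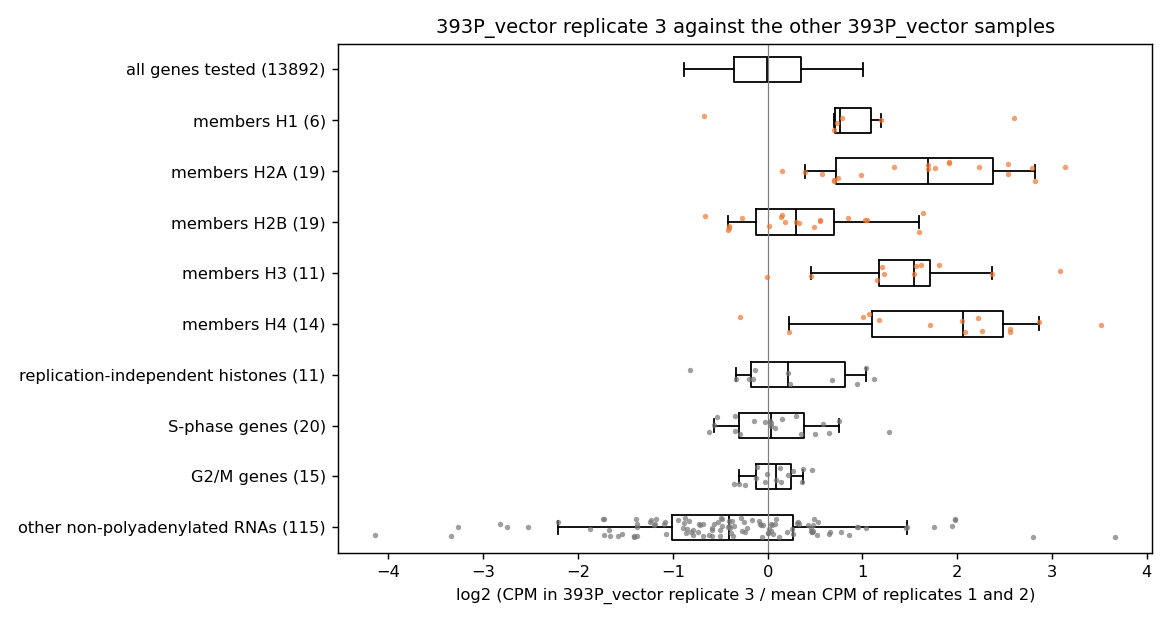
Level in 393P_vector replicate 3 relative to the mean of 393P_vector replicates 1 and 2, as a log2 ratio of CPM on the horizontal axis. Boxes span the quartiles with the median as a line, whiskers the 5th to 95th percentiles, and points are single genes. Members of H4, H2A, H3 and H1 lie mostly to the right of 0, H2B members lie around it, and the other non-polyadenylated RNAs lie mostly to the left.

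Other sets moved in this sample too, and their part in the histone values was not tested. Among non-histone genes, the tenth with the shortest exon length (1270 genes) had a median ratio of 1.31, with 22.13% at 2 or more, and 19 single-exon coding genes of up to 1000 nucleotides had a median ratio of 1.61. The tenth with the highest GC content had a median ratio of 0.784. Other RNAs that lack a poly(A) tail, largely small nucleolar RNAs, mostly moved the other way, with a median ratio of 0.753 over 115 genes. Their summed level was 24400 CPM, against 48980 and 44860 CPM in replicates 1 and 2. Snord22 alone was at 12630 CPM in both of these and at 2193 CPM in this sample. However, 9 of the 115 (7.83%) had a ratio of 2 or more, against 5.05% of all genes. The small nuclear RNA Rnu11 was at 0.866 and 0.697 CPM in replicates 1 and 2 and at 9.93 CPM in this sample. Rnu12 was at 4.028 and 2.975 CPM and then 5.044 CPM. Genes of S phase, the stage in which these histones are made, had a median ratio of 1.03 (20 genes). RNA integrity values were not used here. A share of cells in S phase and an amount of histone mRNA per cell cannot be told apart in bulk RNA. The comparisons of the members are therefore given with and without this sample.

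**Figure D2:**
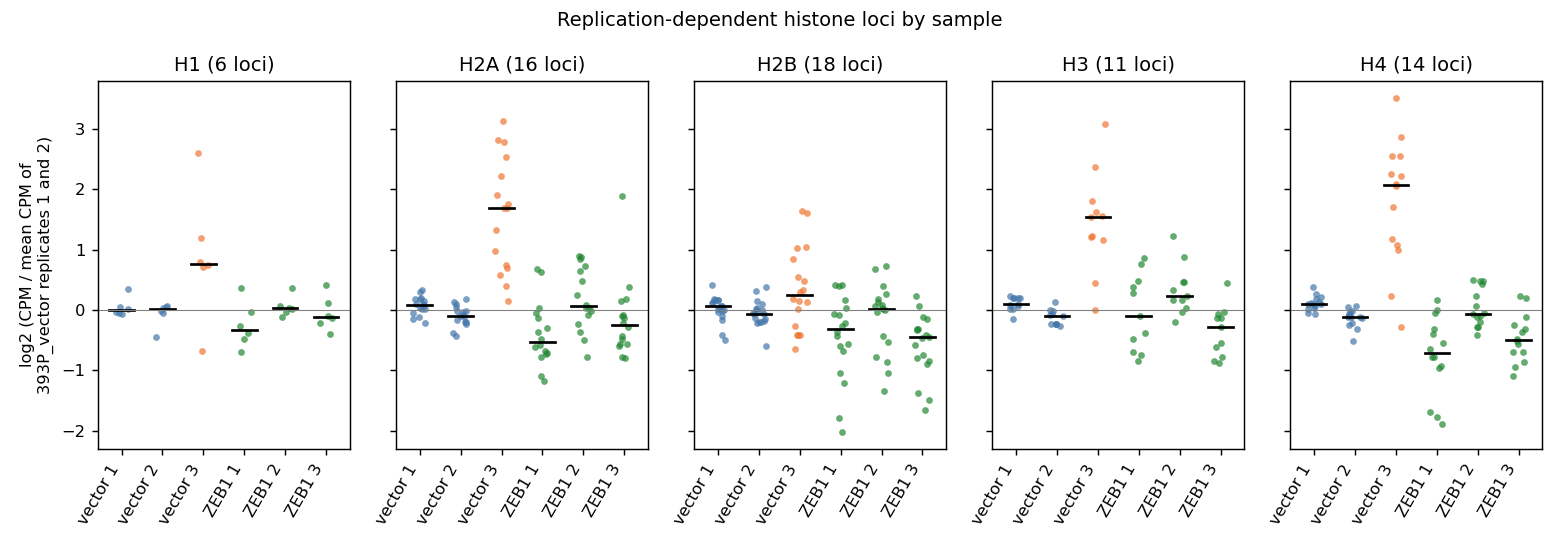
Level of each of the 65 tested histone loci in each sample, as the log2 ratio to the mean CPM of 393P_vector replicates 1 and 2, in 1 panel per class. Points are loci and black lines are medians. In the H1, H2A, H3 and H4 panels the median of 393P_vector replicate 3 stands above those of the other samples, while in the H2B panel its points overlap those of the others.

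In the fit of all 6 samples (edgeR quasi-likelihood test, adjusted p over all 13892 genes), 1 member was higher in 393P_ZEB1 and 7 were lower, out of the 69 rows that passed the filter on low counts. Among all genes, 18.3% were higher and 19.3% lower. The share of members called was thus below that of genes at large, while most members had the same sign. In 62 of 69 the log2 fold change was negative, with a median of -0.6 against -0.02 for all genes. Without 393P_vector replicate 3, 49 were negative and 20 positive, the median was -0.17, and 1 member was higher and 10 were lower, where 26.2% of all genes were higher and 26.8% lower. Tested by edgeR against a 1.5-fold change with all samples, 0 members were higher and 2 lower (Hist1h2bb and Hist1h2bk), where 7.78% of all genes were higher and 8.05% lower. In 11 members all 393P_ZEB1 samples lay below all 393P_vector samples, and in 1 all lay above, against 26.5% and 26.3% of all genes. The members as a whole made up 0.406%, 0.356% and 0.505% of all counts in 393P_vector and 0.307%, 0.332% and 0.291% in 393P_ZEB1, and every 393P_ZEB1 sample was below every 393P_vector sample. This separation of the sum over all classes rested on the most abundant member, Hist2h2bb. Without it the summed level was 2131, 1954 and 3423 CPM in 393P_vector and 1595, 2031 and 1686 CPM in 393P_ZEB1, so that 393P_ZEB1 replicate 2 lay above 393P_vector replicate 2.

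**Figure D3:**
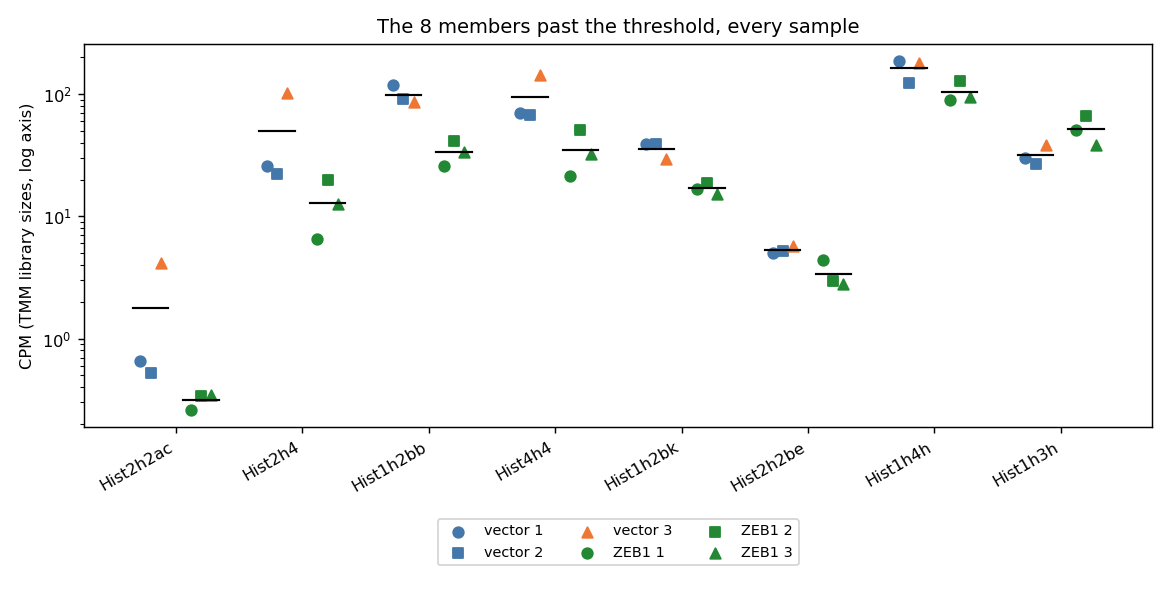
Level of the 8 members that passed the test in the fit of all 6 samples, in CPM on a log axis, for every sample. Black bars are group means and orange triangles mark 393P_vector replicate 3. Hist1h2bb and Hist1h2bk are separated by group with or without that sample, whereas for Hist2h2ac and Hist2h4 it lies far above the other 393P_vector samples.

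Among the H2B genes were the members with the firmest difference. Hist1h2bb was at 118, 91.6 and 86.7 CPM in 393P_vector and at 25.7, 41.2 and 33.4 CPM in 393P_ZEB1. Every 393P_ZEB1 sample was well under every 393P_vector sample, and 393P_vector replicate 3 was the lowest of its group. The log2 fold change was -1.56 (SE 0.2, edgeR adjusted p = 0.000679), a mean level in 393P_vector that was 2.96 times that in 393P_ZEB1. Hist1h2bk was at 39.3, 38.8 and 29.4 CPM in 393P_vector and at 16.9, 18.9 and 15.1 CPM in 393P_ZEB1, again without overlap and with replicate 3 the lowest 393P_vector sample. Its log2 fold change was -1.08 (SE 0.16, edgeR adjusted p = 0.00131). Hist1h2bb and Hist1h2bk were the members that passed the test in each of the 6 fits that left out 1 sample, with log2 fold changes of -1.74 to -1.4 for Hist1h2bb and -1.21 to -0.99 for Hist1h2bk. The exact permutation test gave 0.1 for each, the smallest p that 3 samples against 3 can give. Of the 50-base stretches in their annotated transcripts, 40.1% for Hist1h2bb and 74.2% for Hist1h2bk also occur in transcripts of other genes, so that the assignment of their reads depends on how the authors treated reads with several matches, which the sources used here do not state.

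Hist2h2be, an H2B gene of the chromosome 3 cluster with no 50-base stretch shared with another gene, was at 4.98, 5.2 and 5.77 CPM in 393P_vector and 4.39, 2.97 and 2.82 CPM in 393P_ZEB1. The groups did not overlap, although 393P_ZEB1 replicate 1 lay near the lowest 393P_vector sample. Its log2 fold change was -0.65 (SE 0.21, edgeR adjusted p = 0.0421), and -0.59 without 393P_vector replicate 3 (edgeR adjusted p = 0.0287), but the call was lost without 393P_vector replicate 1 or 2 or 393P_ZEB1 replicate 2 or 3 (edgeR adjusted p = 0.075 to 0.151). Hist2h2bb was the most abundant member, with 28.81 to 48.95% of all member counts, at 2016, 1662 and 1385 CPM in 393P_vector and 1529, 1269 and 1231 CPM in 393P_ZEB1. The groups overlapped, since 393P_ZEB1 replicate 1 was above 393P_vector replicate 3. The log2 fold change was -0.33 (SE 0.16, edgeR adjusted p = 0.154) with all samples and -0.45 (edgeR adjusted p = 0.0083) without that replicate. The row of Hist2h2bb overlaps 1 annotated RNA on the same strand (Gm42743) and 1 on the opposite strand (Gm20628), and the reads of these cannot be told apart. Hist1h2bg, the next most abundant H2B gene after Hist1h2bb, was at 69.8, 53 and 67.6 CPM in 393P_vector and 80.6, 64.9 and 44.4 CPM in 393P_ZEB1. These ranges overlapped throughout (log2 fold change -0.003, SE 0.22). Over the class, 19 rows were tested and 3 were lower and none higher, with a median log2 fold change of -0.33. The summed level of H2B was 2341, 1944 and 1681 CPM in 393P_vector and 1750, 1492 and 1400 CPM in 393P_ZEB1, with overlap. Its log2 ratio was -0.36, and -0.47 without 393P_vector replicate 3. Without Hist2h2bb, a sum chosen after the data were seen, the groups did not overlap. That sum was 325.3, 281.7 and 295.4 CPM in 393P_vector and 220.5, 222.5 and 168.8 CPM in 393P_ZEB1 (log2 ratio -0.56, and -0.57 without replicate 3). No H2B gene was higher at an unadjusted p below 0.05 either (0 higher and 4 lower), nor by DESeq2 (0 and 4) or limma voom with sample weights (0 and 5). Over all genes, 18.3% were higher and 19.3% lower by edgeR with all samples, and 22.4% and 24.2% at an unadjusted p below 0.05. The shares were 20.3% and 21.3% by DESeq2, and 28.6% and 29.5% by limma voom with sample weights. The counts by these rules in every class are to be read against these shares.

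Among the H3 genes, Hist1h3h was the only member that rose. It was at 29.8, 26.7 and 38.7 CPM in 393P_vector and at 51.2, 65.7 and 38.7 CPM in 393P_ZEB1. 393P_ZEB1 replicate 3 lay barely above 393P_vector replicate 3, and the groups did not overlap. The log2 fold change was 0.71 (SE 0.22, edgeR adjusted p = 0.0375) and 0.88 without 393P_vector replicate 3 (edgeR adjusted p = 0.0107), and was lost as a call without 393P_vector replicate 1 or 2 or 393P_ZEB1 replicate 1 or 2 (edgeR adjusted p = 0.0961 to 0.131). Of its 50-base stretches 93.9% occur in other genes. The other abundant H3 genes were not called. Hist1h3i was at 21.9, 16.2 and 55.5 CPM in 393P_vector and 26.5, 34.8 and 18.2 CPM in 393P_ZEB1, and Hist1h3a at 23.1, 17.2 and 47.1 CPM against 14.4, 25.4 and 18.4 CPM. In both, only 393P_vector replicate 3 stood outside the range of the rest. Of 11 tested H3 genes 10 had a negative log2 fold change with all samples and 6 without that replicate. The summed level of H3 was 142, 115 and 293 CPM in 393P_vector and 146, 192 and 119 CPM in 393P_ZEB1, and its log2 ratio turned from -0.27 to 0.24 when replicate 3 was left out. Without that replicate, Hist1h3c passed as lower (log2 fold change -0.47, edgeR adjusted p = 0.0386).

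For H4, 3 of 14 genes were lower, where 19.3% of all genes were. All 14 had a negative log2 fold change, with a median of -1.41 that became -0.27 without 393P_vector replicate 3. Without that replicate 1 of the 14 was lower, where 26.8% of all genes were. Hist4h4, the single member on chromosome 6, was at 69.8, 67.8 and 145 CPM in 393P_vector and 21.4, 51.4 and 32.4 CPM in 393P_ZEB1. All 393P_ZEB1 samples were below all 393P_vector samples, and replicate 3 was 2.1 times the mean of the others in its group. The log2 fold change was -1.42 (SE 0.39, edgeR adjusted p = 0.0244) and -0.97 (edgeR adjusted p = 0.0449) without that replicate, and the call was lost without 393P_ZEB1 replicate 1 (0.0888) or replicate 3 (0.0891). Hist2h4 was at 26, 22.4 and 102 CPM in 393P_vector and at 6.49, 19.9 and 12.6 CPM in 393P_ZEB1, with no overlap, but with replicate 3 at 4.23 times the mean of the other 393P_vector samples. Its log2 fold change was -1.95 (SE 0.65, edgeR adjusted p = 0.0483) and -0.9 (edgeR adjusted p = 0.112) without that sample, and the call was also lost without any 1 of the 393P_ZEB1 samples (edgeR adjusted p = 0.064 to 0.163). Hist1h4h, the most abundant H4 gene, was at 185, 123 and 180 CPM in 393P_vector and 90.2, 127 and 95.7 CPM in 393P_ZEB1. Here 393P_ZEB1 replicate 2 was above 393P_vector replicate 2, and the call (log2 fold change -0.64, SE 0.2, edgeR adjusted p = 0.0353) was lost without 393P_vector replicate 3 (edgeR adjusted p = 0.0661) or replicate 1 (0.105) and without 393P_ZEB1 replicate 1 (0.135) or 3 (0.129). Hist1h4i, the only H4 gene that was lower in replicate 3 than in the other 393P_vector samples, was at 40.7, 37.5 and 32 CPM in 393P_vector and 22.8, 36.1 and 31.3 CPM in 393P_ZEB1, with overlap and no call (edgeR adjusted p = 0.257). The summed level of H4 was 376.1, 296.3 and 636 CPM in 393P_vector and 187.1, 296.3 and 219 CPM in 393P_ZEB1. Its log2 ratio was -0.9, and -0.52 without 393P_vector replicate 3.

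Of 19 tested H2A rows, 1 was lower and 0 were higher by edgeR, with 5 lower and 0 higher at an unadjusted p below 0.05, 3 and 0 by DESeq2, and 2 and 0 by limma voom with sample weights. Hist2h2ac was low throughout, at 0.654, 0.527 and 4.15 CPM in 393P_vector and 0.262, 0.342 and 0.344 CPM in 393P_ZEB1. The groups did not overlap, and replicate 3 of 393P_vector was 7.04 times the mean of its group's other samples. The log2 fold change was -2.51 (SE 0.82, edgeR adjusted p = 0.0462) and -0.89 (edgeR adjusted p = 0.0397) without that sample, and the call was lost without any 1 of the 393P_ZEB1 samples (edgeR adjusted p = 0.122 to 0.154). The most abundant H2A genes were Hist2h2aa2, counted in a row that also stands for Hist2h2aa1, and Hist1h2ab. The former was at 40.1, 35.6 and 142 CPM in 393P_vector and 22.8, 32.2 and 21.7 CPM in 393P_ZEB1, separated in every sample. Its log2 fold change was -1.5 (edgeR adjusted p = 0.0545), which missed the threshold, and -0.56 without replicate 3 (edgeR adjusted p = 0.0155), which passed it. A less abundant locus of the same symbols was at 1.41, 0.833 and 6.51 CPM in 393P_vector and 1.74, 1.19 and 4.14 CPM in 393P_ZEB1, with overlap. The log2 fold change of this locus was -0.32 (edgeR adjusted p = 0.774), and 1.08 without replicate 3 (edgeR adjusted p = 0.169), not called in either fit. Hist1h2ab was at 41.2, 35.5 and 123 CPM against 27.5, 45.4 and 25.9 CPM, with overlap and no call in either fit. The summed level of H2A was 204, 192 and 500 CPM in 393P_vector and 158, 198 and 142 CPM in 393P_ZEB1, a log2 ratio of -0.85 that was -0.26 without replicate 3. Reads of H2A genes were the hardest to place, with a median of 78.9% of 50-base stretches shared with other genes.

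None of the 6 linker histone genes passed the edgeR test with all samples or without 393P_vector replicate 3, and 0 had an unadjusted p below 0.05 or were called by DESeq2 or by limma voom with sample weights. Hist1h1a was at 421, 392 and 255 CPM in 393P_vector and 398, 412 and 371 CPM in 393P_ZEB1, where 393P_vector replicate 3 was the one low sample. Hist1h1e was at 231, 242 and 408 CPM against 181, 231 and 220 CPM, and Hist1h1d at 245, 239 and 404 CPM against 150, 247 and 208 CPM. Among the H1 genes, Hist1h1c was the one whose fold change moved most with 1 sample, at 51.2, 54.5 and 321 CPM in 393P_vector and 37.9, 55.6 and 57.3 CPM in 393P_ZEB1. Its log2 fold change was -1.5 (SE 0.69, edgeR adjusted p = 0.125) and -0.07 (edgeR adjusted p = 0.734) without that sample. Linker genes shared a median of 1.15% of their 50-base stretches with other genes, and Hist1h1c shared 8.5%, the highest of the 6. The exact permutation test gave 0.2 to 0.8 for the H1 genes, where the smallest p that can be reached is 0.1.

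Levels can be set side by side between genes per kilobase of the counted exon length. In 393P_vector, Hist2h2bb had a mean of 3430 CPM per kilobase, followed by Hist1h1a at 477, Hist1h4h at 342, Hist1h1b at 281 and Hist1h2bb at 211 CPM per kilobase. In 393P_ZEB1 the same order began with Hist2h2bb at 2730, Hist1h1a at 528, Hist1h1b at 227 and Hist1h4h at 219 CPM per kilobase, while Hist1h2bb stood at 71.5. Hist1h1b and Hist1h4h stood in the opposite order in the groups. The order in 393P_vector changed with replicate 3. From replicates 1 and 2 alone, Hist1h2bb (224 CPM per kilobase) stood above Hist1h1b (197), and the differences between neighbours in these orders were not tested.

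H2A and H2B genes lie head to head in many places, so that 1 stretch of DNA serves as promoter for both. Among tested members there were 10 such pairs with counted starts within 600 bases, among them Hist3h2a with the pseudogene Hist3h2bb-ps. In 7 of the 10, the H2A gene had the higher ratio of 393P_vector replicate 3 to the other 393P_vector samples, with medians of 2.87 for the H2A and 1.26 for the H2B genes. Hist1h2ag and Hist1h2bj, with starts 281 bases apart, had ratios of 8.77 and 1.8. The pair of Hist1h2bk differed in the comparison itself. Hist1h2ah, which has the same octamer, was at 1.77, 2.33 and 3.05 CPM in 393P_vector and 1.36, 3.74 and 2.65 CPM in 393P_ZEB1, with overlap and a log2 fold change of 0.12 (SE 0.37, edgeR adjusted p = 0.832), against -1.08 for Hist1h2bk. For Hist2h2ac and Hist2h2be, 277 bases apart, the log2 fold changes without replicate 3 were -0.89 and -0.59. The differences between partners were not tested.

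By position, with a gap of more than 500 kilobases parting clusters, the members formed 5 groups: 12 rows on chromosome 3 (Hist2), 1 on chromosome 6 (Hist4h4), 3 on chromosome 11 (Hist3), and 28 and 31 in the parts of the large Hist1 cluster on chromosome 13. The median log2 fold change was -0.65 on chromosome 3, -0.55 on chromosome 11, and -0.45 and -0.89 in the chromosome 13 parts. Without 393P_vector replicate 3 these became -0.45, -0.37, -0.11 and -0.14. Of 11 tested rows on chromosome 3, 3 were lower with all samples and 5 without that replicate. Both rows of the more abundant Hist2h2aa1 and Hist2h2aa2 locus, which carry the same counts, were among the latter. Of 24 and 30 tested rows in the chromosome 13 parts, 1 and 2 were lower, and 1 in the first was higher. Among all genes, 18.3% were higher and 19.3% lower with all samples, and 26.2% and 26.8% without that replicate. On chromosome 11, Hist3h2ba was at 9.1, 16.7 and 8.19 CPM in 393P_vector and 8.73, 7.06 and 7.44 CPM in 393P_ZEB1, with overlap, and was called only without replicate 3 (log2 fold change -0.74, edgeR adjusted p = 0.0257). Hist3h2a was at 44.6, 48.1 and 77.6 CPM against 37.6, 47.6 and 33.3 CPM, not called. Differences between clusters were not tested.

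**Figure D4:**
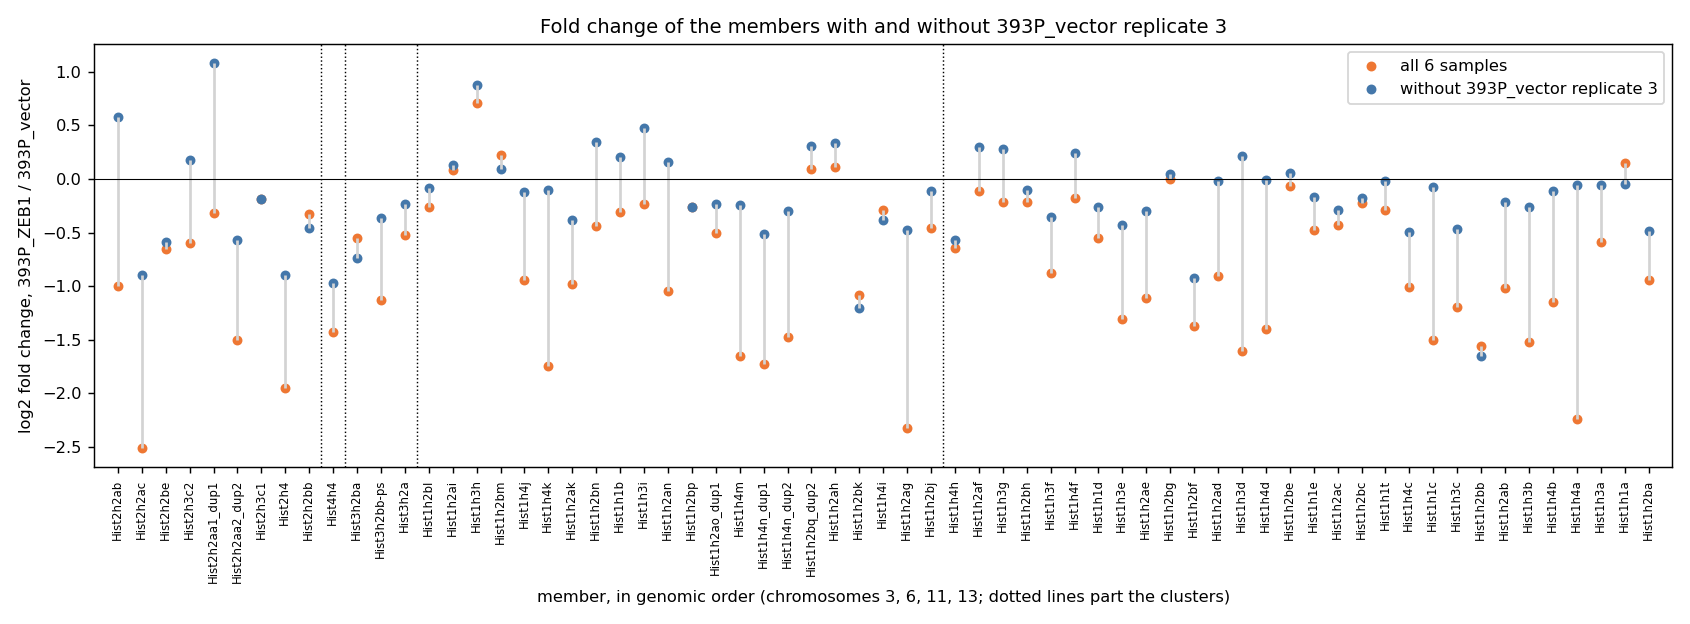
Log2 fold change of 393P_ZEB1 over 393P_vector for the 65 tested loci in genomic order, with all 6 samples in orange and without 393P_vector replicate 3 in blue, joined by grey lines. Orange points lie mostly below 0 and many blue points near it. Hist1h2bb and Hist1h2bk are low in both, and Hist1h3h is high in both.

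Few non-histone genes inside the chromosome 13 clusters were tested. Zfp184, Pom121l2 and Prss16 were tested in the first and none was called. Their median ratio of 393P_vector replicate 3 to the other 393P_vector samples was 1.04. In the other part, Hfe, a gene of iron uptake, was higher in 393P_ZEB1, at 1.64, 2.47 and 1.76 CPM against 7.48, 6.79 and 7.29 CPM, without overlap (log2 fold change 1.88, SE 0.2, edgeR adjusted p = 0.000237). Of the other 511 tested genes on chromosome 13, 160 were higher and 49 lower, with a median log2 fold change of 0.2 (0.28 without 393P_vector replicate 3). On chromosome 6, where Hist4h4 lies, 70 of 669 were higher and 236 lower, with a median of -0.36 (-0.3 without that replicate).

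The counted interval of a row can end before the stem-loop, near it or far past it, and the rows differed in this. It stopped before the stem-loop in 19 tested members, ended within 100 bases after it in 8, and ran more than 100 bases past it in 16. Distances were taken on the genome and include any intron. In the last set the median ratio of 393P_vector replicate 3 to the other 393P_vector samples was 1.65, against 3.28 in the first and 3.49 in the middle set. The interval of Hist4h4 runs 2445 bases past the stem-loop and that of Hist1h1c 840 bases. Those of Hist1h2bb and Hist1h2bk end 17 and 48 bases before the last base of the stem-loop. Without that replicate, the median log2 fold changes of these sets were -0.23, -0.35 and -0.24 in the same order as the counts. In the 26 tested members with no stem-loop placed, the median ratio was 2.15 and the median log2 fold change without that replicate was 0.04. The stem-loop of a row was searched only in transcripts of its own symbol. Rows of Hist2h2aa1, Hist2h2aa2 and Hist1h2ap without one carry the counts of an overlapping row in which it was placed. These loci therefore enter the sets both with and without a stem-loop. These sets also differ in class and length, so the length of the model, the class and the part read cannot be told apart.

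The genes that make, process and package histone mRNA were compared by lists. Counts of each list with all samples are to be read against 18.3% of all genes higher and 19.3% lower. Those without 393P_vector replicate 3 are to be read against 26.2% and 26.8%. Replication-independent histones are also made outside S phase, and their mRNAs mostly carry poly(A) tails. Of 15 in the tables, 11 were tested, and 3 rose and 3 fell, against 5 and 4 without 393P_vector replicate 3. The linker variant H1fx was at 3.44, 2.8 and 1.77 CPM in 393P_vector and 10.7, 9.68 and 11.1 CPM in 393P_ZEB1 (log2 fold change 1.98, edgeR adjusted p = 0.000588), and H2afv rose by 1.03. H2afx, the variant phosphorylated at DNA breaks, was at 117, 124 and 110 CPM against 56.6, 72.2 and 57 CPM (log2 fold change -0.92, edgeR adjusted p = 0.00106). H2afj fell by 0.9 on the log2 scale, but it was at 4.24, 4.16 and 8.07 CPM in 393P_vector, and its log2 fold change was -0.51 without replicate 3. The call of H2afj was lost without any 1 of the 393P_ZEB1 samples (edgeR adjusted p = 0.0725 to 0.148). H1f0 fell by 0.38, a call that held only without 393P_vector replicate 3 among the 6 fits that left out 1 sample (edgeR adjusted p = 0.000734, against 0.072 to 0.0928 in the others).

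The H3.3 genes H3f3a and H3f3b and the H2A variant H2afz were not called with all samples, with log2 fold changes of -0.06, -0.13 and 0.07, and their values moved with 393P_vector replicate 3. H2afz was at 31.3, 29.7 and 66.2 CPM in 393P_vector and 45, 46.4 and 42.3 CPM in 393P_ZEB1, so that every 393P_ZEB1 sample lay between replicate 3 and the other 393P_vector samples. Without that replicate H2afz was higher in 393P_ZEB1 (log2 fold change 0.55, edgeR adjusted p = 0.000497), as was H3f3a (0.37, edgeR adjusted p = 0.046), and limma voom with sample weights also called both (0.505 and 0.398, adjusted p = 0.00166 and 0.0322). H3f3b was not called in either edgeR fit.

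Of 11 genes of histone transcription and S-phase entry, 2 rose (Ccne1, cyclin E1, by 0.92, and E2f3 by 0.48 on the log2 scale) and 1 fell (E2f2, -0.72), against 3 and 1 without 393P_vector replicate 3. Npat and its partner at the histone locus body, Casp8ap2, were not called, with log2 fold changes of -0.06 (SE 0.17) and -0.03 (SE 0.12). Of 18 genes of 3′ end formation, 3 rose and 2 fell, against 3 and 5 without that replicate. Slbp was at 74.3, 84.9 and 66.2 CPM in 393P_vector and 105, 88.8 and 105 CPM in 393P_ZEB1, all above the 393P_vector samples (log2 fold change 0.41, SE 0.13, edgeR adjusted p = 0.0406). This call was lost without 393P_vector replicate 1 or without any 1 of the 393P_ZEB1 samples (edgeR adjusted p = 0.05 to 0.129). Zfp473, a zinc finger protein of the U7 processing complex, fell (log2 fold change -1.08), as did Snrpd3 (-1.11), and Ncbp2 (0.63) and Snrpe (0.53) rose. Snrpd3 was at 42.6, 44.5 and 99.5 CPM in 393P_vector and 23.3, 32.6 and 30.6 CPM in 393P_ZEB1, and its log2 fold change was -0.6 without 393P_vector replicate 3. Its call was lost without any 1 of the 393P_ZEB1 samples (edgeR adjusted p = 0.0786 to 0.133), and that of Snrpe without 393P_vector replicate 2 or 393P_ZEB1 replicate 1 or 2 (edgeR adjusted p = 0.0532 to 0.061). Of 14 genes of translation and decay of histone mRNA, 3 rose, among them Zcchc11, a uridyltransferase (0.81), and Dcp2, the decapping enzyme (0.74), and Upf1, the decay helicase, fell (-0.78). Without 393P_vector replicate 3 these counts were 4 and 2. The call of Zcchc11 was lost without 393P_ZEB1 replicate 1 or 2 (edgeR adjusted p = 0.0766 and 0.0533).

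Of 26 chaperone and import genes, 3 rose and 4 fell, Chaf1b of the CAF-1 complex (0.75) and Ubn1 (0.47) among the former and Tonsl (-0.75) and Ubn2 (-0.68) among the latter, against 5 and 10 without 393P_vector replicate 3. Ubn1 was not called without 393P_vector replicate 1 or any 1 of the 393P_ZEB1 samples (edgeR adjusted p = 0.0523 to 0.117), nor was Tonsl without 393P_ZEB1 replicate 1 (edgeR adjusted p = 0.0575). Replication genes gave no common direction, and their counts stand against 18.3% of all genes higher and 19.3% lower. Of 20 S-phase genes, 3 rose and 4 fell, with a median log2 fold change of 0.02, Cdc45 (0.68) and Pcna (0.32) being higher and Mcm3 (-0.69) and Mcm2 (-0.68) lower, against 5 higher and 5 lower without 393P_vector replicate 3. Pcna was called in only 1 of the 6 fits that left out 1 sample, that without 393P_vector replicate 3 (edgeR adjusted p = 0.00617, against 0.076 to 0.132 in the others). Mcm3 lost its call without 393P_vector replicate 1 or any 1 of the 393P_ZEB1 samples (edgeR adjusted p = 0.0518 to 0.0694) and Mcm2 without 393P_ZEB1 replicate 1 or 3 (edgeR adjusted p = 0.0582 and 0.0539). Of 15 G2/M genes 0 rose and 3 fell by edgeR, with Aurka at -0.58 and Cdk1 at -0.5, while 0 were higher and 6 lower at an unadjusted p below 0.05, 0 and 4 by DESeq2, and 0 and 7 by limma voom with sample weights. Without 393P_vector replicate 3, 0 rose and 6 fell by edgeR. Other RNAs without a poly(A) tail had 3 genes higher and 7 lower of 115 tested, and 10 higher and 14 lower of 116 without that replicate. These counts stand against 26.2% of all genes higher and 26.8% lower in the fit without it.

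The 6 member rows that were not tested were Hist1h2aa, Hist2h3b, and rows of Hist1h2ao, Hist1h2ap, Hist1h2bq and Hist1h2br that repeat each other's counts in pairs. Hist2h3b had 15, 7 and 80 counts in 393P_vector and 1 count in each 393P_ZEB1 sample, and it passed as lower in the fit with no filter on low counts. The others had at most 0.421 CPM in any sample. Whether near-identical copies such as these received reads of their neighbours depends on the counting, which is not given in the sources used here.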

How the data were processed

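The authors deposited, for each of the 6 samples, a table of unnormalized read counts per RefSeq feature with coordinates on GRCm38 and the exon length. The aligner, the counting program, its use of strand and its treatment of reads with several matches are not given in the sources used here. The deposited RPKM values were not used. Counts were analysed in R 4.3.3 with edgeR 4.0.16. Features were kept by filterByExpr (minimum count 10), which left 13892 of 24214, and were scaled by TMM and fitted by the robust quasi-likelihood method with 1 coefficient for the condition. The Benjamini-Hochberg correction covered all 13892 features, with a threshold of 0.05, and the biological coefficient of variation was 0.184. A standard error is the fold change divided by the root of the F statistic. Alternatives were DESeq2 1.42.0, limma 3.58.1 voom, other scalings and filters, a replicate block, a fold threshold and leaving out each sample in turn.

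The members are all rows matched by symbol. Named members were the 3 most abundant and the most changed called gene of each class and all tested loci outside chromosome 13, and named list genes were the called ones with the largest change, beside Zeb1 and 8 fixed genes (Slbp, Npat, Casp8ap2, H2afz, H2afx, H3f3a, H3f3b and H1f0). The members and the gene lists were chosen with earlier results of these data known. Sequences came from GENCODE M21 transcripts and RefSeq promoters (GRCm38.p6), read with Python 3.11.15 and pandas 2.3.3. The share of a member's 50-base stretches found in other genes was counted over GENCODE M21 transcripts.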

Additional observations from a re-analysis of the deposited data

How the results depend on the processing

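With all 6 samples, 1 member was higher and 7 were lower. The lower count was 17 of 69 by the DESeq2 Wald test (2 members had no adjusted p), where 21.3% of all genes were lower, 4 of 75 with no filter on low counts (11.6% of all genes) and 2 of 69 in the test against a 1.5-fold change (8.05%), where 0 were higher. DESeq2 size factors, leaving out the 10 most counted genes, limma voom with sample weights, at least 10 counts in every sample, and counting overlapping members once (like the sum without Hist2h2bb, chosen after seeing the data) gave 1 higher and 5 to 10 lower. Leaving out each sample in turn gave 0 to 1 higher and 2 to 18 lower, the most (18 of 70) without 393P_vector replicate 2, where 16.7% of all genes were lower, and the fewest (2 of 71) without 393P_ZEB1 replicate 3 (12.6%), with 11 lower without 393P_vector replicate 1, 10 without 393P_vector replicate 3, 3 without 393P_ZEB1 replicate 1 and 5 without 393P_ZEB1 replicate 2. The cause was not tested. The replicate numbers share no stated source. Deviations of equally numbered samples correlated with r from -0.205 to 0.279 and those of unequally numbered samples from -0.182 to 0.222, so the numbers were not taken as pairs, and the fit with the replicate block gave 0 higher and 5 lower (15.7% and 16.2% of all genes). The log2 ratio of summed levels over all members ranged from -0.52 to -0.32 on leaving out each sample and was -0.5 without Hist2h2bb. For H3 it ranged from -0.52 to 0.24, for H1 from -0.46 to -0.09 and for H2A from -1.09 to -0.26. The ranges were -0.47 to -0.23 for H2B and -1.11 to -0.52 for H4.

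Of the log2 fold changes of named genes, 34 values changed sign, none of them in genes called in the fit of all samples. Hist2h2aa1 stands here for the less abundant locus of that symbol. Leaving out each sample in turn gave -1.002 to 1.08 for Hist2h2aa1, -1.43 to 0.58 for Hist2h2ab, -0.545 to 0.48 for Hist1h3i, -2.04 to 0.22 for Hist1h3d, -0.53 to 0.203 for Hist1h1b, -0.996 to 0.17 for Hist2h3c2, -0.29 to 0.37 for H3f3a, -0.25 to 0.13 for H3f3b, -0.18 to 0.15 for Npat, -0.097 to 0.052 for Casp8ap2 and -0.047 to 0.289 for Hist1h1a, all of which turned without 393P_vector replicate 3. It gave -0.13 to 0.547 for H2afz (turned without 393P_vector replicate 1 or 2), -0.24 to 0.43 for Hist1h2ah (393P_vector replicate 1 or 393P_ZEB1 replicate 2), -0.21 to 0.21 for Hist1h2bg (393P_vector replicate 1 or 3 or 393P_ZEB1 replicate 3) and -0.39 to 0.056 for Hist2h3c1 (393P_ZEB1 replicate 3). Casp8ap2 and Hist2h2aa1 turned also without 393P_ZEB1 replicate 2. With limma voom and sample weights, in which 393P_vector replicate 3 had a weight of 0.1111, the values were 0.696 for Hist2h2aa1, 0.41 for Hist2h2ab, 0.398 for H3f3a, 0.35 for Hist1h3i, 0.27 for Hist1h1b, 0.11 for Hist1h3d and H3f3b, 0.084 for Npat and -0.045 for Hist1h1a. The replicate block gave 0.006 for Hist2h2aa1 and 0.033 for H3f3a, and DESeq2 and its size factors gave 0 for Hist1h2bg. With 3 samples a group, members under about 1 CPM rest on few counts.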
